A study of Oryza sativa Japonica Group with 8 samples.

Results

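The core of jasmonate synthesis in rice was followed through 5 genes on a commercial rice oligonucleotide array: the allene oxide synthases AOS1 (Os03g0767000) and AOS2 (Os03g0225900), allene oxide cyclase AOC (Os03g0438100), the oxophytodienoate reductase OPR7 (Os08g0459600) and the jasmonate-amino acid synthetase JAR1 (Os05g0586200). The members are all non-control probes whose name starts with 1 of these locus identifiers. This gave 12 of the 42477 probes on the array, 4 for AOS2, 3 for AOC, 2 each for AOS1 and OPR7 and 1 for JAR1. The symbols come from published rice locus names. Each was found in the RefSeq gene table of assembly ASM3414082v1 as the name of 1 gene on the chromosome that the locus identifier gives, which is chromosome 3 for AOS1, AOS2 and AOC, chromosome 8 for OPR7 and chromosome 5 for JAR1. No coordinates are given, because that assembly is not the build of the array.

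Jasmonates are lipid-derived plant hormones that accumulate after wounding, herbivory and infection. In the plastid, lipoxygenases oxidise linolenic acid, allene oxide synthase turns the hydroperoxide into an unstable allene oxide, and allene oxide cyclase closes the ring to give oxophytodienoic acid (OPDA). In the peroxisome, an OPDA reductase and rounds of beta-oxidation shorten this to jasmonic acid. JAR1 then joins jasmonic acid to isoleucine, and this conjugate is the form that binds the COI1 receptor and triggers breakdown of the JAZ repressors.

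The study compared fifth-leaf blades of the rice cultivar Hinohikari (Oryza sativa Japonica Group), taken at the five-leaf stage from plants grown at 25 ºC, after 1 day with 10 µM linalool or with a mock treatment. Linalool is a monoterpene alcohol that rice releases as a volatile, and the comparison asks which genes respond to it. Each group had 4 samples, each a pool of at least 3 plants that the design text calls a biological replicate. The labels disagree on the control, called mock-treated in one place and without treatment in another, and it is called mock here. All mock arrays were on slide 1 and all linalool arrays on slide 2, scanned as separate runs, and the effect of the slide cannot be told apart from that of linalool. The median local background was 26 to 28 on the mock arrays and 19 on each linalool array, and 73.3% to 77.3% of spots were well above background. All 5 leaf markers (photosynthesis genes) were well above background on all 8 arrays. Their summed level, relative to the 75th percentile of the array, was 2072 to 2477 in mock and 249 to 549 after linalool, and all 5 fell. Of 3 dividing-cell markers, 2 were tested and both rose, from a summed level of 0.727 to 0.857 to one of 0.916 to 0.97. The 3 secondary wall markers were well above background on at most 1 array. The part of these shifts in the results below was not tested. In whole blades, fewer cells of a type and less RNA per cell cannot be told apart.

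Of the 5 genes, AOS2, JAR1 and AOC fell after linalool, OPR7 rose slightly, and AOS1 did not pass the test. The fall of AOS2 was far larger than any other change, about 31-fold by the measured signal of its brightest probe. Against the lowest signal well above background on each linalool array, it was 5.75-fold to 8.12-fold over its tested probes. This is an approximate bound, since a single probe's own limit can lie higher. The differences of the other genes were all under 2-fold. Levels are given as log2 of the background-corrected signal minus the 75th percentile of the array, so 0 is the level of a fairly bright probe and 1 unit is a 2-fold step. Levels of different probes are not compared, since probes differ in brightness for the same amount of RNA. A gene passed when limma gave an adjusted p below 0.05 over all 33124 tested probes.

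**Figure D1:**
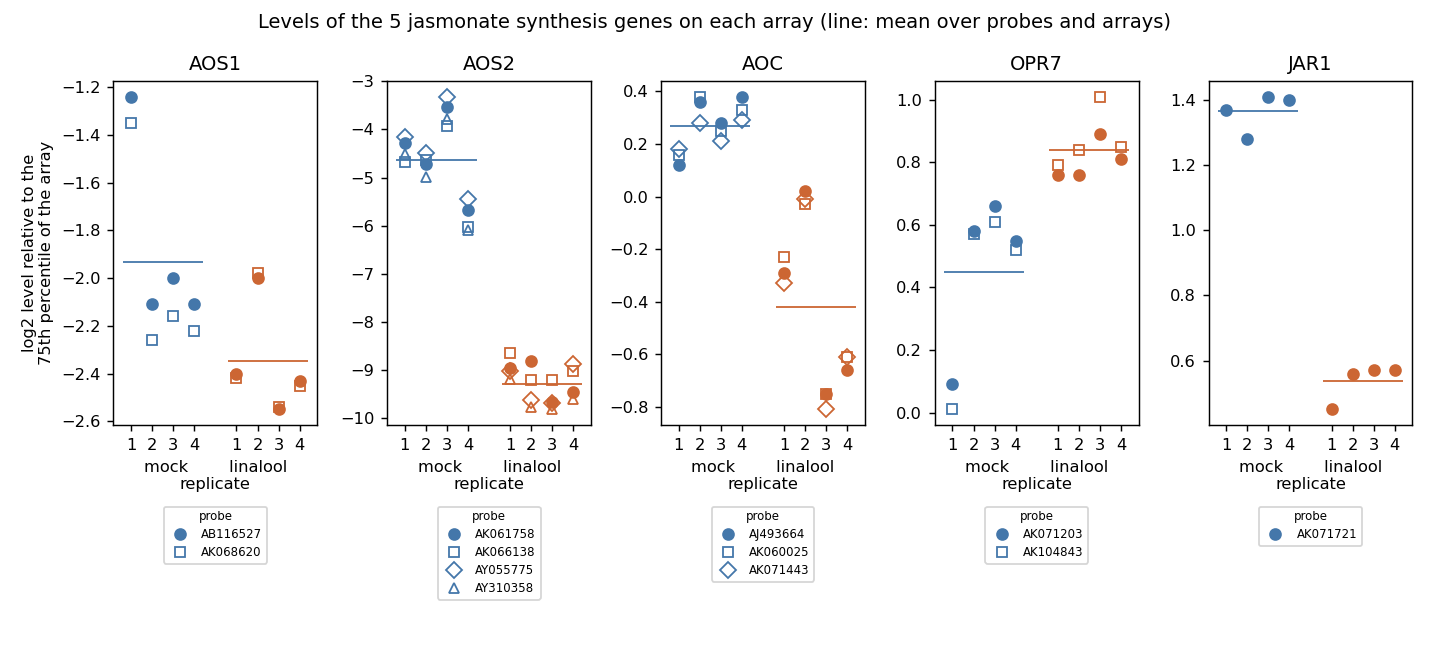
Log2 level relative to the array's 75th percentile (vertical axis, a separate scale for each gene) of all 12 probes of the 5 genes on each of the 8 arrays. Points are probes, coloured by group, and lines are means over probes and arrays. The mock and linalool values of AOS2, AOC, OPR7 and JAR1 do not overlap, and those of AOS1 do, with mock replicate 1 well above the other mock arrays.

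AOS1 encodes the allene oxide synthase that is the first enzyme committed to jasmonates in the plastid. With its brighter probe, AB116527, the level was -1.24, -2.11, -2.00 and -2.11 on mock replicates 1 to 4 and -2.40, -2.00, -2.55 and -2.43 on linalool replicates 1 to 4. Mock replicate 1 was the highest of all arrays, and linalool replicate 2 lay among the remaining mock values, so the groups overlapped. The means were -1.87 ± 0.42 and -2.34 ± 0.24 (SD, n = 4 each), a difference of -0.48 with a 95% confidence interval of -0.97 to 0.02 (limma adjusted p = 0.0798). With the second probe, AK068620, mock replicate 1 was again the highest at -1.35, linalool replicate 2 came next at -1.98, and the other mock arrays were at -2.26 to -2.16. This probe gave a difference of -0.35 (limma adjusted p = 0.192). Without mock replicate 1 the difference of AB116527 was -0.27 (limma adjusted p = 0.117). Without linalool replicate 2 it was -0.59 and passed narrowly (limma adjusted p = 0.0483).

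AOS2 encodes the second allene oxide synthase of the same enzyme family. Its brightest probe, AY055775, stood at -4.15, -4.49, -3.32 and -5.44 on mock replicates 1 to 4, and at -9.02, -9.63, -9.69 and -8.87 on linalool replicates 1 to 4. Every mock array was above every linalool array, and the mock arrays themselves spread over about 2 log2 units, with replicate 3 highest and replicate 4 lowest for all 4 probes. The means were -4.35 ± 0.88 and -9.30 ± 0.42 (SD, n = 4 each), a difference of -4.95 with a standard error of 0.42 and a 95% interval of -5.92 to -3.99 (limma adjusted p = 2.2e-05). All tested AOS2 probes entered the test through their mock arrays alone. The linalool values are readings near background, so the standard error, interval and p do not measure the size of the fall. The other tested probes gave -4.67 (AK061758) and -4.75 (AY310358), with adjusted p from the same fit of 3.04e-05 and 3.38e-05. The remaining probe, AK066138, which is assigned to transcript variant 01 of the locus while the others are assigned to variant 02, was well above background on 3 mock arrays only and was not tested. Its difference was -4.21, from -4.81 ± 0.88 to -9.02 ± 0.26.

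The size of the AOS2 fall is set by the dim end of the array. None of the 4 probes was well above background on any linalool array, so only a bound is measured there. Against the lowest signal that counted as well above background on each linalool array, AOS2 was at least 8.12-fold lower with AY055775, at least 7.05-fold with AK061758 and at least 5.75-fold with AY310358. That limit is the lowest of the whole array, and a single probe's own limit can lie higher: AK066138 was not called well above background on mock replicate 4 at a signal of 15.4, where the lowest signal so called was 11.5. No bound is given for AK066138. The raw scans show how much light lies behind these values. With AY055775 the spot's median pixel signal was 82, 69, 117 and 56 on the mock arrays over a local background of 25 to 27.5, and 25.5, 26.5, 25 and 32 on the linalool arrays over a local background of 17 to 19.5. Spot minus background was therefore 30 to 90 in mock and 5.5 to 15 after linalool. The software's own error was 10.2% to 15.1% of the processed signal of this probe in mock and 65.7% to 99.6% after linalool. When background was instead removed with normexp and an offset of 50 was added, which exceeds the net AOS2 signal of most arrays, the difference was -0.76 and did not pass (limma adjusted p = 0.638).

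**Figure D2:**
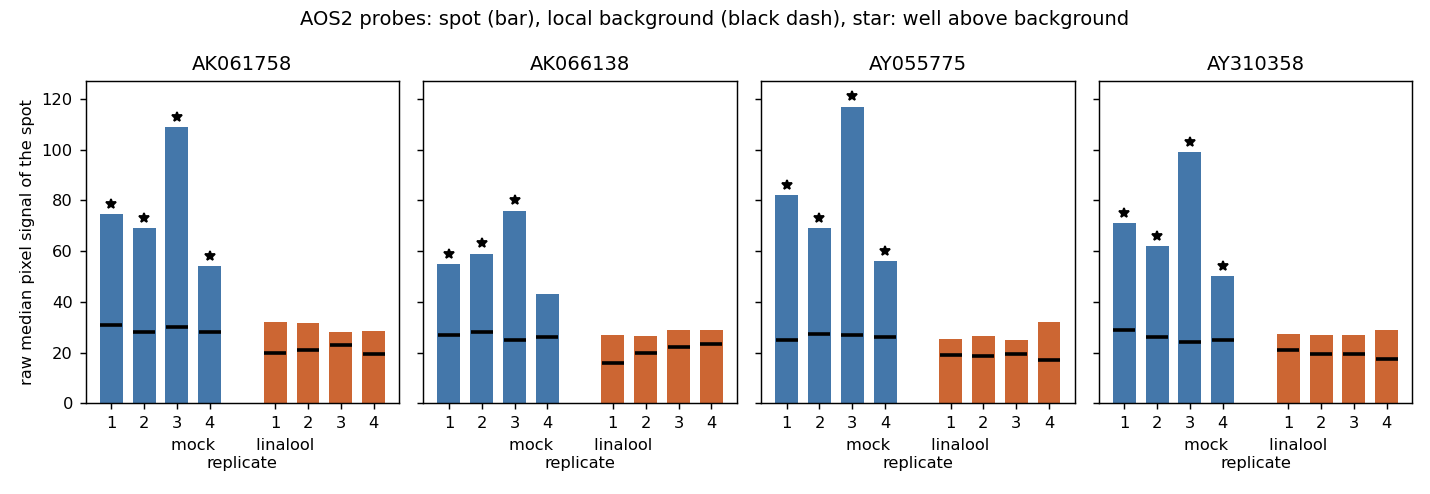
Raw median pixel signal of the 4 AOS2 spots (bars, arbitrary scanner units) on each array, with the local background as a black dash and a star where the scanner software called the spot well above background. Mock spots of AY055775 reach 56 to 117, linalool spots 25 to 32, and no linalool spot carries a star.

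The 2 synthases were compared within each array. There, the AOS2 level minus the AOS1 level was -3.33 to -1.32 in mock and -7.63 to -6.44 after linalool. The shift was -4.47, and scaling an array by a constant cannot alter it (exact two-sided permutation test over the 70 assignments, p = 0.0286, the smallest this design can give). The AOS2 probe entered through its mock arrays alone, and its linalool readings are near background. This p is therefore not independent support for a difference between the synthases and does not measure its size. With AOS2 held at no less than the lowest signal well above background, the shift was -2.54. With normexp, where signal, correction and offset change together, the shift was -0.57 (exact two-sided permutation test, p = 0.457). AOS1 kept a signal well above background on all 8 arrays, between 197 and 385 with probe AB116527 on the scanner's linear scale.

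AOC is the step after both synthases, and it is known in rice as a single gene. Its brightest probe, AK060025, read 0.16, 0.38, 0.25 and 0.33 on mock replicates 1 to 4 and -0.23, -0.03, -0.75 and -0.61 on linalool replicates 1 to 4. All linalool arrays were below all mock arrays, but they were less uniform, with replicates 1 and 2 closer to mock than replicates 3 and 4. The mean went from 0.28 ± 0.10 to -0.40 ± 0.33 (SD, n = 4 each), a difference of -0.68 with a 95% interval of -1.05 to -0.31, or 1.61-fold lower (limma adjusted p = 0.00558). The 3 AOC probes, which are assigned to 2 transcript variants, differed among themselves by only 0.03 in this value, from -0.71 to -0.68. For comparison, the median range between probes of 1 locus was 0.12 over the 6488 loci with at least 2 tested probes, and it was 0.13 for AOS1, 0.28 for AOS2 and 0.10 for OPR7.

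OPR7 is the peroxisomal OPDA reductase of rice, the only one of the 5 genes that rose. Probe AK104843 read 0.01, 0.57, 0.61 and 0.52 on mock replicates 1 to 4 and 0.79, 0.84, 1.01 and 0.85 on linalool replicates 1 to 4. The groups did not overlap, and mock replicate 1 lay far below the other mock arrays. The difference was 0.44 with a 95% interval of 0.12 to 0.77, or 1.36-fold higher (0.43 ± 0.28 against 0.87 ± 0.10, SD, n = 4 each, limma adjusted p = 0.0228). The other probe, AK071203, gave 0.34 (limma adjusted p = 0.0449). These calls are close to the threshold. Without mock replicate 1 the differences were 0.30 (limma adjusted p = 0.0127) and 0.21 (limma adjusted p = 0.0339), without linalool replicate 3 neither probe passed, and with normexp correction neither passed. AK071203 lost its call without mock replicate 2, without mock replicate 4 and without any single linalool replicate (limma adjusted p = 0.0567 to 0.104). With no filter on dim probes it did not pass either (limma adjusted p = 0.0533).

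JAR1, the enzyme that makes the active isoleucine conjugate, varied little within either group. Its probe, AK071721, read 1.37, 1.28, 1.41 and 1.40 on mock replicates 1 to 4 and 0.45, 0.56, 0.57 and 0.57 on linalool replicates 1 to 4. The groups did not overlap, and the arrays within each lay close together. The mean fell by 0.83 from 1.36 ± 0.06 to 0.54 ± 0.06 (SD, n = 4 each), with a 95% interval of -0.99 to -0.66, or 1.77-fold lower (limma adjusted p = 2.58e-05).

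**Figure D3:**
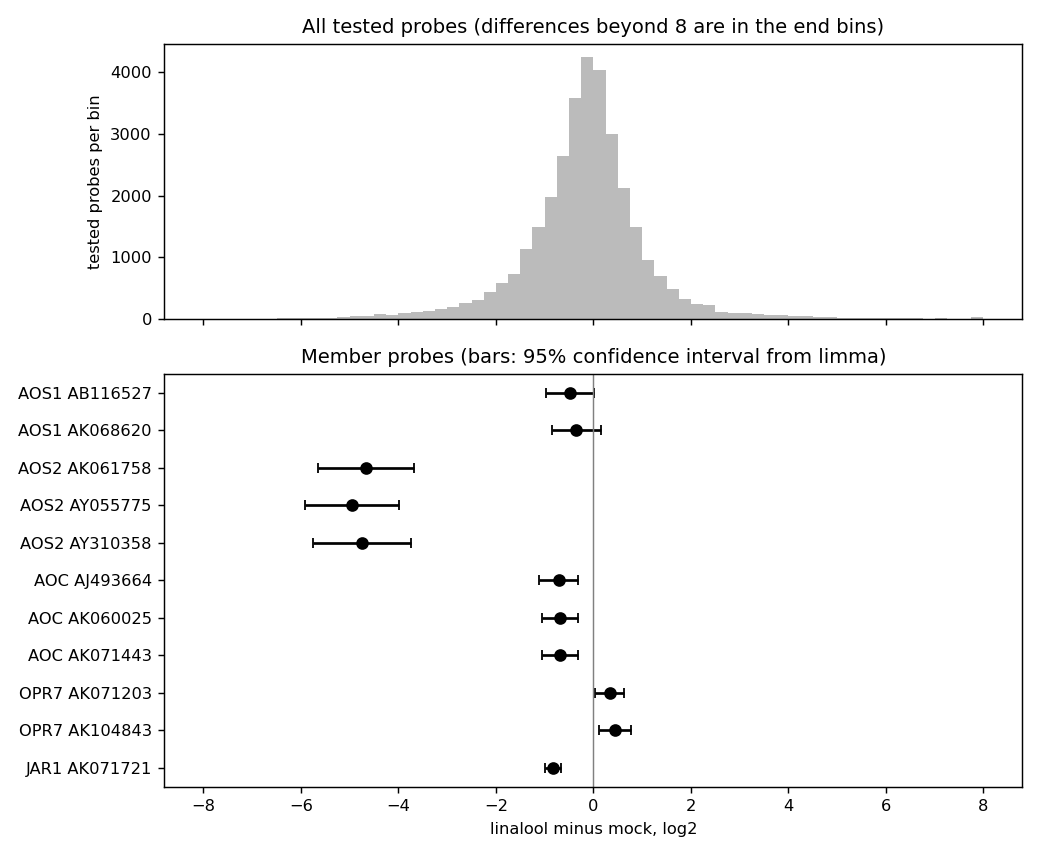
Upper panel, the distribution of linalool minus mock differences (log2) over all 33124 tested probes. Lower panel, the 11 tested probes of the 5 genes, with 95% confidence intervals from limma. The AOS2 intervals rest on linalool readings near background. Probes of 1 gene agree closely, the 3 tested AOS2 probes lie between -4.95 and -4.67, and the other 8 lie between -0.83 and 0.44.

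Changes of this kind were common on these arrays. Of the 5 genes, 4 were called in either direction, against 67.4% of the 21543 tested genes. Among them 3 were lower, against 38.5% of genes, and 1 was higher, against 28.9%. AOS2 alone was at least 2-fold lower, against 17.5% of genes. Of the 11 tested probes, 9 were called, against 67.3% of all tested probes, with 7 lower (39% of all) and 2 higher (28.4% of all). The 3 tested AOS2 probes were at least 2-fold lower, as were 18.3% of all tested probes. The same 9 probes had groups that did not overlap, against 63.3% of all tested probes, with 7 below mock (36.6% of all) and 2 above (26.7% of all). The median difference of the 5 genes was -0.68, and that of all tested genes was -0.10. By size of the measured difference, the AOS2 probe AY055775 was exceeded by 1.39% of all tested probes. That rank rests on linalool readings near background, and more probes would exceed its bound of 8.12-fold. JAR1 was exceeded by 37.2%, AOC (AK060025) by 44.3%, AOS1 (AB116527) by 56.7% and OPR7 (AK104843) by 59.4%. Moves of the size of the last 4 were thus ordinary in this comparison.

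Direction depended on the reference for some of the 5 genes. The linalool arrays were brighter before scaling, with a 75th percentile of 1092 to 1605 against 850 to 1000 in mock. On the unscaled signal, OPR7 (AK104843) was 879 to 1432 in mock and 1885 to 3231 after linalool, JAR1 was 2065 to 2630 and 1488 to 2385, and AOC (AK060025) was 972 to 1258 and 934 to 1511. OPR7 alone of these was separated without scaling. The 6 spike-in probes used were uneven: before scaling, 1 of them differed by -0.656 between the groups and the others by -0.113 to 0.0261. Scaled to these 6 probes, which moved the median of all tested genes from -0.10 to 0.69, OPR7 differed by 1.23, AOC by 0.11, AOS1 by 0.31, JAR1 by -0.04 and AOS2 by -4.16, and only OPR7 and AOS2 passed (limma adjusted p = 0.000282 and 5.12e-07). AOS2 was thus lower and OPR7 higher in direction under every scaling and value set tried, without passing under normexp, while the falls of AOC and JAR1 hold relative to the bulk of the genes and not relative to the spike-ins.

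**Figure D4:**
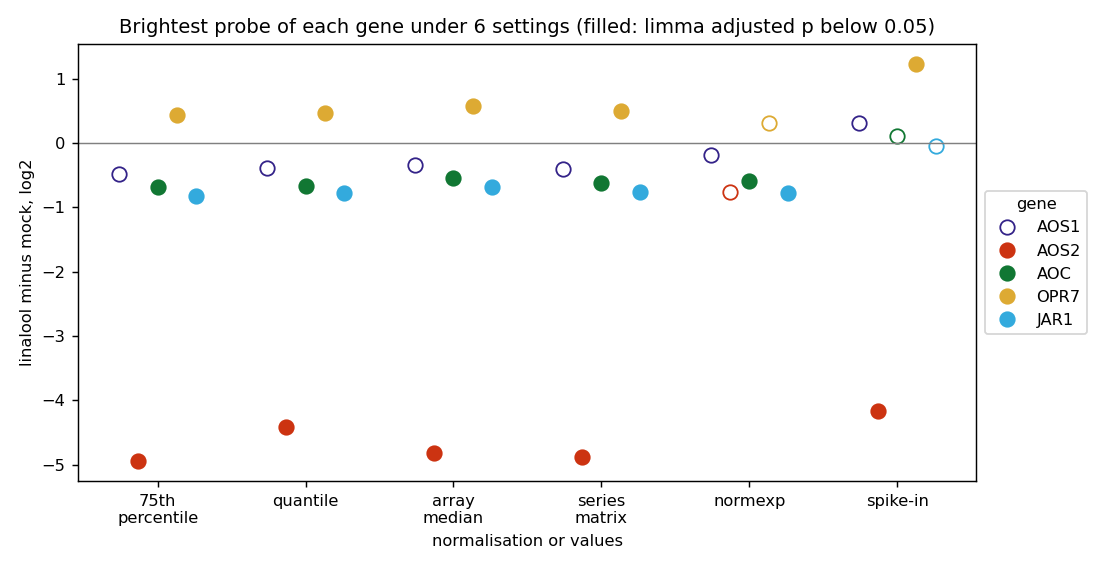
Difference between linalool and mock (log2) for the brightest probe of each gene under 6 normalisations or value sets. Filled points passed an adjusted p of 0.05 in limma. AOS2 stays near -4 to -5 except with normexp (-0.76), OPR7 is above 0 throughout, and AOC and JAR1 move to about 0 with spike-in scaling.

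Ratios between the genes on 1 array are not altered by scaling an array by a constant, though they can change with quantile normalisation or normexp. OPR7 minus AOC rose from a range of -0.14 to 0.37 in mock to 0.86 to 1.76 after linalool, a shift of 1.12. JAR1 minus OPR7 went from 0.71 to 1.36 in mock to -0.44 to -0.27, a shift of -1.27. OPR7 minus AOS1 shifted by 0.92, from 1.26 to 2.69 in mock to 2.84 to 3.56, with no overlap. In contrast, AOC minus AOS1 (shift -0.21), JAR1 minus AOS1 (-0.35) and JAR1 minus AOC (-0.14) overlapped between the groups. In these pairwise ranges, given as a description with no test, OPR7 parted upwards and AOS2 downwards from the remaining 3 genes.

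The steps around these genes moved in several directions. The lists were recalled from published locus names and hold 50 further jasmonate genes, of which 38 were tested. In all, 17 of the 38 rose, 9 fell and 12 did not pass, with a median difference of 0.21. Over all tested genes 28.9% rose and 38.5% fell, 67.4% in all, so the number of pathway genes called was near the general rate. Of 13 listed lipoxygenase and hydroperoxide lyase genes, 9 were tested, and 3 rose and 5 fell (median -1.57). Some lipoxygenases make the substrate of allene oxide synthase, and hydroperoxide lyases can compete for it. The list holds the family as a whole, and which of its genes serve jasmonate synthesis was not tested. Lipoxygenase Os02g0194700 had a difference of -5.33 and Os05g0304600 one of -3.66, while Os03g0700700 had 1.37 and CM-LOX2 (Os08g0509100) 4.86, with CM-LOX2 well above background on 1 mock array only. Os02g0194700 was well above background on 1 linalool array only, and with normexp its difference was -1.81 and did not pass (limma adjusted p = 0.143). With normexp 2 genes of this list fell, against 5.

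Relatives of OPR7 and the beta-oxidation genes that act after it were listed separately. Of 5 other tested OPR genes, which are not placed in the peroxisomal step that OPR7 carries out, 4 rose and 0 fell (median 1.53), led by Os06g0215600 (5.15) and Os06g0216000 (2.55), with Os06g0216300 at 1.53 and Os02g0559400 at 0.84. With normexp Os02g0559400 was at 0.67 and did not pass (limma adjusted p = 0.125), which left 3. The chromosome 6 genes are close copies of each other, so their probes may not be specific. Of 9 beta-oxidation genes, 6 rose and 1 fell (median 0.78), and 4 rose with normexp. The shares over all tested genes, 28.9% higher and 38.5% lower, stand beside both lists. Os03g0132000, listed as an OPDA-CoA ligase-like gene, rose by 1.62, Os02g0274100, a multifunctional protein gene, by 1.32, and Os10g0457600, a ketoacyl-CoA thiolase gene, by 0.78. The peroxisomal transporter gene Os05g0107600 fell by 0.84, which became -0.05 with spike-in scaling.

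Of 18 listed receptor, JAZ and transcription factor genes, 14 were tested, with 3 rising, 3 falling and 8 not passing (median -0.04). The receptor genes COI1a and COI1b differed by -0.23 and 0.00 (limma adjusted p = 0.0581 and 0.987), and MYC2 (Os10g0575000), the transcription factor released from JAZ proteins, by 0.10 (limma adjusted p = 0.404). With spike-in scaling all 3 passed as higher, COI1a at 0.56, COI1b at 0.79 and MYC2 at 0.89 (limma adjusted p = 0.0175, 0.00363 and 0.00166), and 9 genes of the list were then higher, against 3. The early jasmonate-response gene RERJ1 (Os04g0301500) was well above background on 1 array of each group and was not tested. JAZ8 (Os09g0439200) rose by 1.74, but with normexp it was at 0.94 and did not pass (limma adjusted p = 0.156), and 1 gene of the list was then higher. The other genes that rose were JAZ12 (Os10g0392400) by 2.97 and JAZ11 (Os03g0180900) by 1.04 (limma adjusted p = 0.00547 and 0.00633). JAZ1, JAZ4 and JAZ3 had differences of -0.77, -0.67 and -0.45, which turned to 0.02, 0.12 and 0.34 with spike-in scaling. The cytochrome P450 gene CYP94C2b (Os12g0150200) has a product that oxidises the isoleucine conjugate that JAR1 makes. It was above the background limit in all linalool samples and in none of the mock samples, with a measured difference of 8.43 (limma adjusted p = 1.3e-06). The gene entered the test through its linalool arrays alone. Its mock values are readings near background, so the p does not measure the size of the rise. Against the lowest signal well above background on each mock array, CYP94C2b was at least 126-fold higher. A single probe's own limit can lie above that signal. JAR2 (Os01g0221100), a relative of JAR1, was well above background on 3 mock arrays and no linalool array and was not tested.

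**Figure D5:**
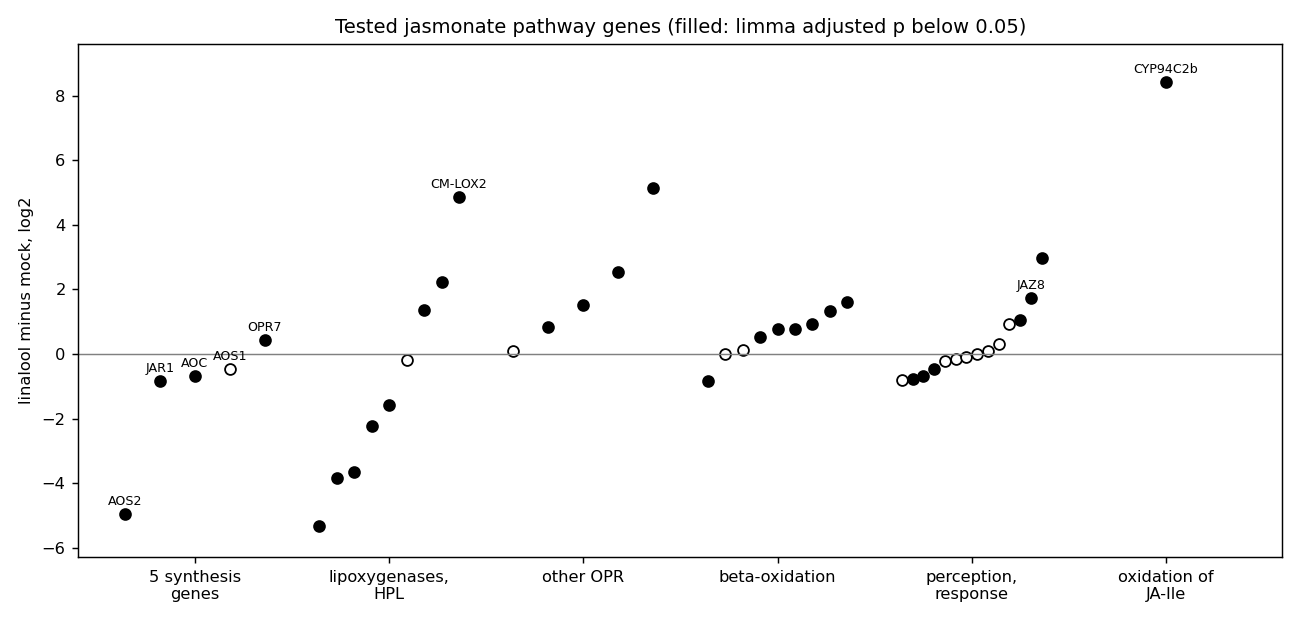
Linalool minus mock difference (log2) of the 5 synthesis genes and of the 38 tested genes of the surrounding jasmonate pathway, by list. Filled points passed an adjusted p of 0.05 in limma, and differences of genes not above background in a group, such as AOS2 (-4.95) and CYP94C2b (8.43), are measured values and not bounds. Other OPR and beta-oxidation genes lie mostly above 0, lipoxygenases on both sides.

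The mock array on which AOS1 was highest also stood apart for several JAZ genes. These were named after their values were seen. Of the 14 tested perception and response genes, 6 were at their highest mock level on this array and 6 at their lowest. JAZ10 (Os03g0181100) was at 2.29 on mock replicate 1 and at -1.90, -4.00 and -3.38 on replicates 2 to 4. JAZ13 (Os10g0391400) was at -0.14 there and at -5.48, -6.63 and -6.77 on the others. JAZ6 (Os03g0402800) was at 1.57 against 0.31 to 0.42. On the same array OPR7 and AOC were at their lowest mock level, and AOS2 was in the middle of its mock range. Without mock replicate 1, JAZ13 differed by 2.46 and JAZ6 by 0.61 between groups, and both passed (limma adjusted p = 0.000529 and 0.00228), against 0.93 and 0.31 with it, where neither did (limma adjusted p = 0.564 and 0.346). The genes and the array were picked from these same values, so the p-values without it are no support for a change. JAZ13 was well above background on 2 mock arrays only, and with normexp on all arrays its difference was 0.00. JAZ10 went from -0.80 to 0.52 and passed in neither case (limma adjusted p = 0.59 and 0.379). Leaving the array out brought the count of perception and response genes called higher from 3 to 5.

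The genes most like each of the 5 in pattern over the 8 arrays were found by Pearson correlation among 21517 genes, as a description in which the group difference and the shared arrays carry much of the value. The pattern of AOS1 was the least common, with 20 genes above a correlation of 0.95, led by Os03g0315400 (0.978) and Os01g0774100 (0.977). OPR7 had 87 such genes, led by Os07g0512200 (0.988) and Os07g0623400 (0.981). AOC had 516, led by Os11g0146000 (0.997) and Os09g0459500 (0.994). AOS2 had 1185, led by Os05g0583500 (0.997) and Os10g0397800 (0.994), and JAR1 had 2338, led by Os06g0224100 and Os01g0388000 (both 0.999). The AOS2 pattern includes linalool readings near background. None of the 5 genes was among the nearest 2 of another.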

How the data were processed

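Single-colour Cy3 arrays were made from 100 ng of leaf RNA and hybridised for 17 h at 65 ºC, per the labels' protocols. Per the file headers, the deposited intensity values are the background-corrected processed signals of Agilent Feature Extraction 10.7.3.1, with no scaling across arrays. In the deposited series matrix these intensity values are multiplied by 1 constant per array (1.37 to 2.51), by a rule that is not stated. Its direction and linear scale match the scanner files, it is not centred, and its column medians were 298.9 to 339.8.

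Spots called non-uniform or population outliers were left out, spots of 1 probe were averaged, and log2 signals were centred on each array's 75th percentile. Probes well above background on at least 4 of 8 arrays (33124 of 42477) entered the test, which used lmFit and eBayes of limma 3.58.1 (R 4.3.3) and Benjamini-Hochberg adjustment over all tested probes. A gene took its tested probe with the highest mean, giving 21543 genes, and 1358 probes with discordant locus names did not enter gene counts. The procedure was tested on simulated data. SciPy 1.17.1 gave the exact permutation test. Named genes were the 5 members, the 4 genes with the smallest p of each pathway list, and COI1a, COI1b, MYC2, RERJ1 and JAZ8. JAZ11 and JAZ12 were named in addition because they rose. The members and lists were chosen with earlier results of these data known. Symbols of pathway genes are recalled names, and MYC2, RERJ1, JAZ8, JAR2 and CYP94C2b were not borne out as unique names in the RefSeq table. Other scalings, deposited values, filters, priors and sample subsets were tried. Precision is limited by the number of arrays.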

Additional observations from a re-analysis of the deposited data

Results flagged for a closer look

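Of 72 groups of 4 arrays tested for 1 array far from the other 3, 9 stood out, where chance gives about 4. Mock replicate 1 had an AOS1 level of -1.24 with probe AB116527, against -2.11 to -2.00 on the other mock arrays, and of -1.35 with probe AK068620, against -2.26 to -2.16. The same array had an OPR7 level of 0.01 with probe AK104843, against 0.52 to 0.61, a JAZ6 level of 1.57, against 0.31 to 0.42, a level of -0.69 for Os05g0107600, against -0.51 to -0.50, and a level of -0.16 for Os10g0457600, against 0.14 to 0.19. JAR1 stood at 0.45 on linalool replicate 1, where the other linalool arrays gave 0.56 to 0.57, and JAZ6 stood at 0.71 there, with the others at 1.04 to 1.10. On linalool replicate 2 there was a MYC2 level of -1.42, against -1.64 to -1.61. The 2 AOS1 probes read the same gene and are 1 observation, and JAZ6 was tested because its values had been seen.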

How the results depend on the processing

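Normexp correction brought the AOS2 difference to -0.76 and that of OPR7 to 0.31 (neither passed, limma), and the shift of AOS2 against AOS1 to -0.57 (exact permutation p = 0.457). With it 9401 probes were called, 4756 higher and 4645 lower, and 5815 genes, against 22307 probes and 14523 genes. Of the pathway genes, 5 were then lower. Signal, correction and offset change together, and the cause was not tested. Spike-in scaling gave 19629 higher and 4377 lower probes, against 9402 and 12905, and 26 higher and 5 lower pathway genes, against 17 and 9. It moved JAR1 to -0.04, the AOC probes to 0.11, 0.08 and 0.11, COI1a to 0.56, JAZ1 to 0.02, JAZ3 to 0.34 and JAZ4 to 0.12. With no filter 15 pathway genes were lower, against 9, and 17 were higher, as with it. Over all probes 18302 were then lower and 9445 higher, against 12905 and 9402. The probes added are dim, so these added lower calls rest largely on readings near background, and their cause was not tested. The median of all tested genes was -0.10, and 0.02 with quantile normalisation or normexp, 0.03 with the array median, -0.30 with no filter and 0.69 with spike-ins. Leaving out 1 array at a time gave -0.59 to -0.27 for AOS1, 0.30 to 0.50 for OPR7 (AK104843) and -4.76 to -4.09 for AOS2 against AOS1. In the last case the exact permutation p was 0.0571 in all 8 runs, the smallest that 3 against 4 allows. These runs too rest on AOS2 readings near background after linalool.

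Samples share replicate numbers. Correlations of same-numbered deviations were -0.00348, 0.168, 0.109 and -0.11, within the -0.232 to 0.227 of differently numbered ones. These values cannot settle whether the samples were paired, and the main test did not pair them. With the replicate block 21251 probes were called, and of the 11 tested member probes only OPR7 probe AK071203 lost its call (adjusted p = 0.0503). AOS2 has no value with probes required above background on all arrays, where its probes were not tested.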
